A study of Caenorhabditis elegans with 12 samples.

Results

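The mRNAs recovered with LIN41 were compared directly with those recovered with the control protein SART-3, without correction for the input RNA. The comparison takes the 3 LIN41 immunoprecipitation (IP) libraries and the 3 SART-3 IP libraries, 6 of the 12 libraries of the series, and a gene was tested if it had at least 10 counts in at least 3 of these 6. This left 8726 of 20182 genes (43.2%), and the other 11456 were not tested. Both strains carried him-5(e1490), an allele that raises the share of males, and were collected whole as mixed L3 and L4 larvae after about 30 h at 25 °C. The LIN41 strain was mutant for lin-41(n2914) and expressed flag-gfp-lin-41 from the transgene xeSi197, driven by the lin-41 promoter and carrying the lin-41 3'UTR. The SART-3 strain had an intact lin-41 gene and expressed sart-3-gfp-his-flag from the transgene xeSi55, driven by the broadly active dpy-30 promoter with the xrn-2 3'UTR. The strains thus differed in the tagged protein, in the promoter that sets where it is made and in the lin-41 allele, and these cannot be told apart between the IPs. Each library pooled 5 parallel IPs, each from 3 mg of protein on anti-FLAG M2 beads. The other 6 libraries, the input RNA of the same lysates, were used only to ask which differences between the IPs were also present between the strains before the IP.

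LIN41 is a TRIM-NHL protein that binds mRNAs and holds back their translation or stability in larval tissues until the let-7 microRNA silences it at the juvenile-to-adult transition. SART-3 is a nuclear protein of pre-mRNA splicing, and its IP served the study as the control for RNA that comes down with a tagged protein. In the epidermis of the worm, the same transition switches the collagens of the cuticle from larval to adult sets, and in males it starts the retraction of the tail tip.

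Total counts ranged from 291466 to 404046 in the LIN41 IPs and from 412440 to 612445 in the SART-3 IPs, below the 859814 to 2024430 of the inputs. Levels are given as normalized CPM, in which each library is scaled to a common total with TMM factors, and 3 counts equalled between 4.78 and 12.8 CPM in the 6 IP libraries. Such floors cover counting error only, since without molecular identifiers several reads can stem from 1 molecule. Replicate 1 stood apart within both IPs: chi-square per degree of freedom, about 1 for counting noise, ranged from 3.88 to 6.62 when it was paired with another replicate and was 1.61 (LIN41) and 2.28 (SART-3) between replicates 2 and 3. The study describes the replicates as independent experiments.

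In the LIN41 IP, 46 of 8726 genes were higher than in the SART-3 IP (0.527%) and 7 were lower (0.0802%), by edgeR's quasi-likelihood test with the replicate number as a block and a Benjamini-Hochberg adjusted p under 0.05. Unadjusted, 559 were higher and 308 lower at p below 0.05. The median log2 difference over all genes was −0.01, with 5% of genes below −0.56 and 5% above 0.69, so the 46 genes, at 0.78 to 5.13, lay in the upper tail. All but 1 of the 46 were higher in 3 of 3 replicates, and so were all 7 lower genes in the other direction. In 16 of the 46, every LIN41 IP library exceeded every SART-3 IP library, which held for 3.85% of all genes tested. The opposite arrangement was found in 6 of the 7 lower genes, against 4.33% of all genes. These counts include genes that entered the test only through the protein with which they were high. They are dmd-3 among the higher and C50F7.5 and sdz-35 among the lower, and they lend the counts no support. Of all genes tested, 2 entered through the LIN41 IPs only and 137 through the SART-3 IPs only. The other called genes were selected by the test on these same libraries, so their separation only describes them.
The counts depended on the replicates. Without replicate 1, 202 genes were higher and 151 lower, without replicate 2, 32 and 3, and without replicate 3, 10 and 0 (414 and 126 at an unadjusted p below 0.05). With no replicate block, no gene passed (0 and 0, lowest adjusted p = 0.105, 110 and 105 unadjusted), and DESeq2 with the block called 13 and 0 (242 and 19 unadjusted).

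The 46 higher genes fell into 2 sets by what the inputs showed. The log2 difference between the inputs of the strains was expressed, with its sign, as a share of that between the IPs. In 12 genes this share ran from −40.5% for glit-1 to 20.6% for lin-41. In the other 34 it was at least 56.9%, with no gene in between. The line between the sets, drawn at 50%, was chosen after the values were seen. The first set comprised mab-10, lin-41, mab-3, lin-29, F18C5.10, dmd-3, C50E3.6, vrp-1, cth-2, cam-1, C31H5.5 and glit-1. Its median log2 difference was 1.98 between the IPs (0.91 to 5.13) and −0.19 between the inputs (−0.50 to 1.06). In the second set the medians were 1.38 (0.78 to 2.54) and 1.13 (0.61 to 2.48). In all 34 genes of that set, the inputs differed in the direction of the IPs in 3 of 3 replicates. Drawing the set by its input difference favoured this, so the count only describes the set.

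**Figure D1:**
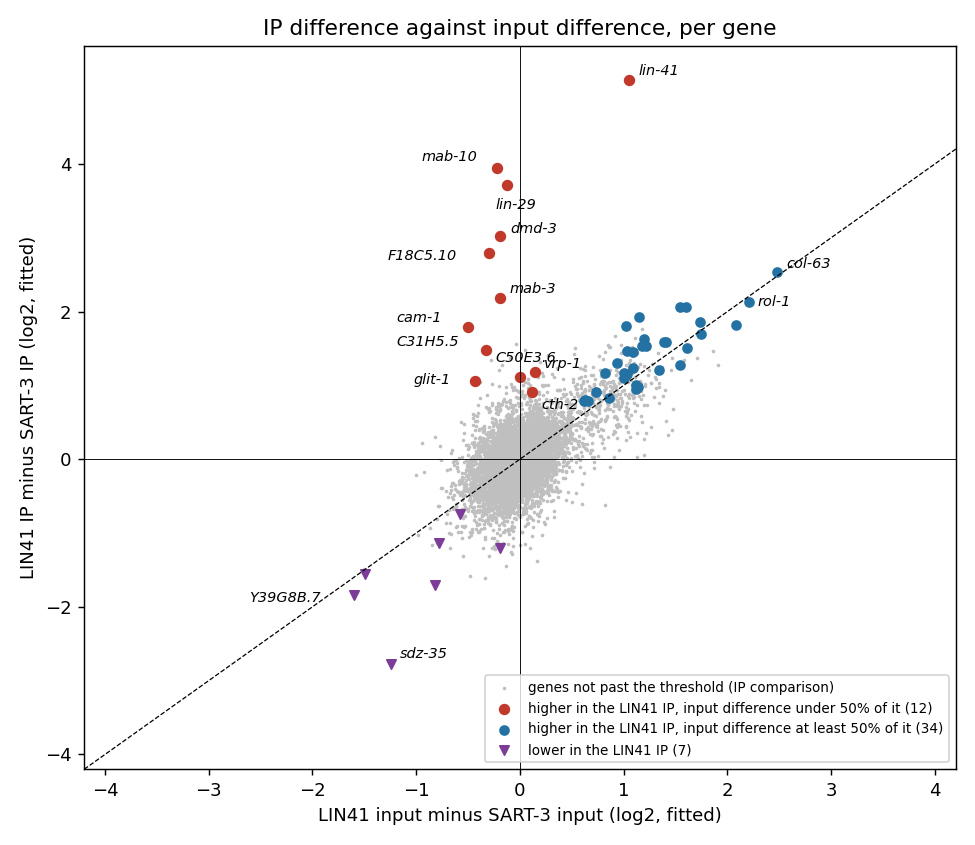
Fitted log2 difference LIN41 minus SART-3 between the IPs (y axis) against that between the inputs (x axis), 1 point per gene, with the dashed line marking equal differences. The 34 blue points lie along the dashed line, at input differences of 0.61 to 2.48, whereas the 12 red points stand above it, from 0.91 for cth-2 to 5.13 for lin-41 on the y axis. The 7 lower genes are triangles.

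After lin-41 itself, the largest differences of the first set were those of the epidermal timing genes lin-29 and mab-10. LIN-29 is the zinc finger transcription factor that drives the larval-to-adult switch, and MAB-10 is its NAB-family cofactor. For lin-29 (WBGene00003015, between 11917642 and 11935343 on the minus strand of chromosome II, WBcel235 assembly), CPM in replicates 1, 2 and 3 reached 2013, 483 and 435 with LIN41 and 18.4, 81.3 and 61.3 with SART-3. For mab-10 (WBGene00003107, between 10528084 and 10534380 on the plus strand of chromosome II), they were 1281, 317 and 385 against 18.4, 43.0 and 38.6. All 3 LIN41 IPs lay above all 3 SART-3 IPs for both mRNAs, and replicate 1 was at once the highest LIN41 IP and the lowest SART-3 IP. The log2 difference was 3.71 for lin-29 (standard error 0.379, adjusted p = 5.80e-07, edgeR) and 3.94 for mab-10 (standard error 0.315, adjusted p = 5.96e-09). By replicate it was 6.43, 2.50 and 2.73 for lin-29 and 5.78, 2.75 and 3.17 for mab-10. The fitted values between the inputs were −0.13 (standard error 0.180) for lin-29 and −0.22 (standard error 0.310) for mab-10. By replicate, the input difference was 0.23, −0.30 and −0.40 for lin-29 and 0.64, −0.41 and −1.06 for mab-10. On the opposite strand, exons of hmg-12 overlap lin-29 and exons of R166.2 overlap mab-10. Neither neighbour passed the threshold between the IPs (adjusted p = 0.997 and 0.856).

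The DM domain genes mab-3 and dmd-3, transcription factors of male differentiation and tail tip retraction, were higher in the LIN41 IP by amounts that varied less among replicates. CPM of mab-3 (WBGene00003100, between 9732137 and 9738035 on the plus strand of chromosome II) were 226, 301 and 310 in the LIN41 IP and 36.9, 82.8 and 61.3 in the SART-3 IP, a log2 difference of 2.18 (standard error 0.197, adjusted p = 5.76e-08, and 2.46, 1.80 and 2.25 by replicate). For dmd-3 (WBGene00012832, between 19650025 and 19655251 on the minus strand of chromosome V), they were 80.9, 70.1 and 59.9 against 2.63, 7.97 and 13.6, a difference of 3.02 (standard error 0.440, adjusted p = 0.000143). In both genes the groups did not overlap and the difference was largest in replicate 1. The SART-3 IPs held only 1, 5 and 6 counts of dmd-3, against 19, 27 and 23 in the LIN41 IPs, and dmd-3 was the only higher gene that entered the test through the libraries of a single protein. Between the inputs, mab-3 differed by −0.19 (standard error 0.170) and dmd-3 by −0.20 (standard error 0.403). These input differences by replicate were 0.09, −0.52 and −0.17 for mab-3 and 1.04, −0.33 and −1.11 for dmd-3.

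The mRNA of lin-41 itself (WBGene00003026, between 9334800 and 9342496 on the minus strand of chromosome I) had the largest log2 difference of all 53 genes, 5.13 (standard error 0.412, adjusted p = 5.96e-09). CPM were 1877, 171 and 208 in the LIN41 IP and 7.90, 19.1 and 13.6 in the SART-3 IP. The LIN41 IP of replicate 1 was the highest by far and rested on 441 counts, against 66 and 80 in replicates 2 and 3, while the SART-3 IPs held 3, 12 and 6. The difference was 7.20, 2.88 and 3.53 by replicate and 3.46 without replicate 1. Of the 12 genes of its set, lin-41 alone had an input difference that was positive in 3 of 3 replicates (1.06, standard error 0.3, adjusted p = 0.285): 147, 23 and 16.7 CPM with LIN41 against 46.6, 18.1 and 12 with SART-3. In the LIN41 strain the counts do not separate the mRNA of the transgene from that of the mutant gene.

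The unnamed genes F18C5.10 and C31H5.5 were also higher. CPM of F18C5.10 (WBGene00017563, between 6559722 and 6561444 on the minus strand of chromosome II) were 272, 44.2 and 57.3 in the LIN41 IP and 15.8, 19.1 and 6.81 in the SART-3 IP, a log2 difference of 2.80 (standard error 0.393, adjusted p = 8.81e-05) that ranged from 1.03 in replicate 2 to 3.74 in replicate 1. For C31H5.5 (WBGene00007856, between 9048188 and 9049349 on the minus strand of chromosome I), they were 80.9, 49.3 and 102 against 23.7, 23.9 and 31.8, a difference of 1.48 (standard error 0.311, adjusted p = 0.0176). The groups did not overlap for either gene. Their input differences were −0.30 (standard error 0.248) and −0.32 (standard error 0.221).
These genes are the mRNAs that the study reported as bound by LIN41. They were chosen on these same libraries, so that all 7 were higher is not independent evidence. The calls of mab-3 and dmd-3 passed in every setting that kept the block. Those of lin-41 (adjusted p = 0.199), mab-10 (0.182) and lin-29 (0.479) were lost with edgeR's robust fit. In that fit, genes of outlying variability are pulled less toward the level common to all genes, and no library is weighted down. The call of lin-29 was also lost with DESeq2 (0.207), and that of F18C5.10 without replicate 3 (0.0514). The call of C31H5.5 was lost with DESeq2, total-count scaling, gene length offsets and without replicate 3 (adjusted p from 0.000657 to 1.00 over its 17 fits with the block).

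**Figure D2:**
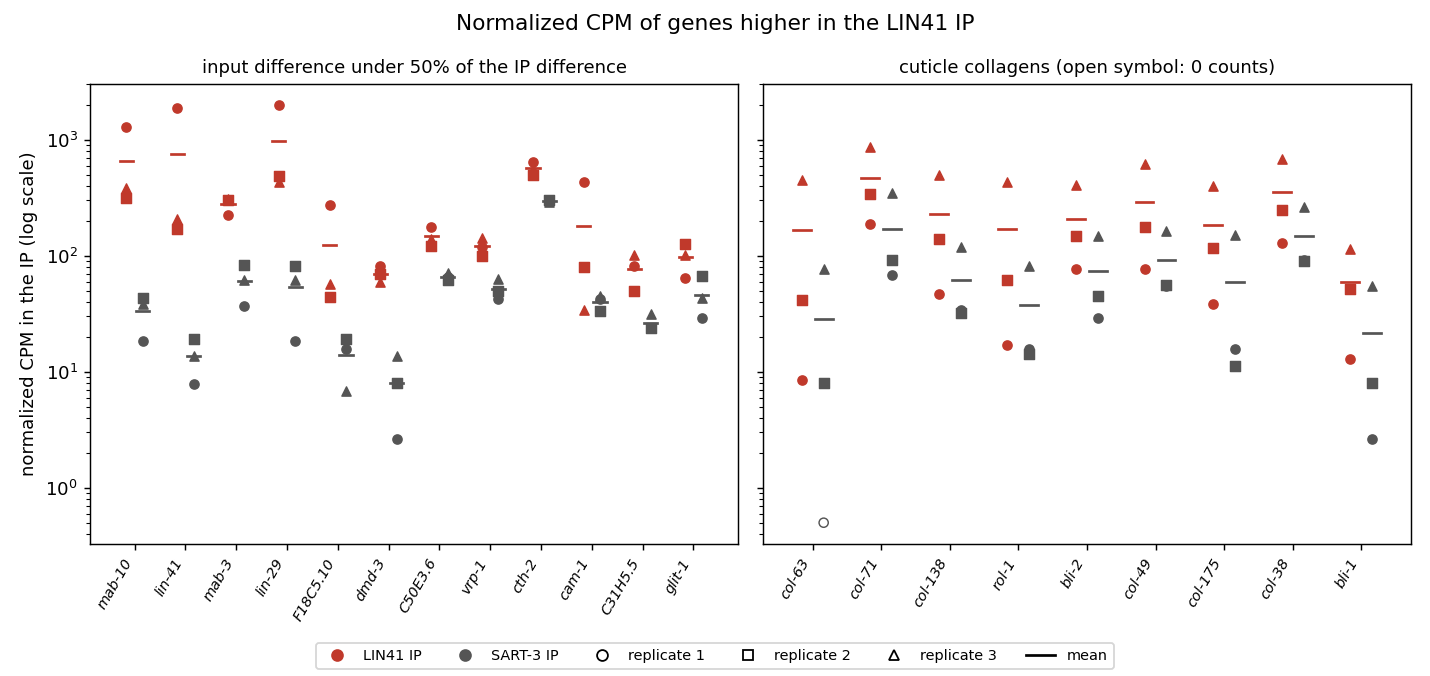
Normalized CPM (log axis) in each LIN41 IP library (red) and SART-3 IP library (grey). Genes are the 12 of the first set (left) and the 9 collagens, by symbol, past the threshold (right). Symbols mark the replicates, bars mark means and an open symbol marks a library with 0 counts. On the left, circles (replicate 1) mark the highest LIN41 IP of lin-41 at 1877 and lin-29 at 2013 CPM. Every LIN41 IP is above every SART-3 IP in 10 of these 12 genes, dmd-3 among them, against 3.85% of all genes tested. The 12 were selected by the test on these libraries, so this count only describes them. On the right, triangles (replicate 3) are highest in both IPs for all 9 genes, and no gene has groups that do not overlap.

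Beyond the reported mRNAs, the first set held 5 genes, here named after their values were seen except cam-1. The gene of largest difference was cam-1, which encodes a ROR-family receptor tyrosine kinase that binds Wnt ligands (WBGene00000289, between 9295915 and 9310304 on the minus strand of chromosome II). Its CPM were 430, 80.5 and 33.9 in the LIN41 IP and 42.1, 33.5 and 45.4 in the SART-3 IP, so that replicates 1 and 2 were higher with LIN41 (3.21 and 1.16 on the log2 scale) and replicate 3 was lower (−0.38). It was the only called gene whose replicates differed in sign. The fitted difference was 1.79 (standard error 0.361, adjusted p = 0.0115) and fell to 0.60 without replicate 1 (adjusted p = 0.298, within 5.15e-09 to 1.00 over its 18 fits with the block). Between the inputs cam-1 was at −0.50 (standard error 0.284), with 0.24, −0.95 and −1.22 by replicate, so that the fitted input difference had the opposite sign to that of the IPs.
The other 4 genes differed less but more evenly. CPM of cth-2, a gene for cystathionine gamma-lyase in the synthesis of cysteine, were 638, 501 and 557 in the LIN41 IP and 303, 301 and 293 in the SART-3 IP, a log2 difference of 0.91 (standard error 0.177, adjusted p = 0.00860). For C50E3.6 they were 179, 122 and 141 against 65.8, 62.1 and 70.4, a difference of 1.12 (standard error 0.209, adjusted p = 0.00514). For vrp-1 they were 119.2, 98.7 and 143 against 42.1, 49.4 and 63.6, a difference of 1.19 (standard error 0.229, adjusted p = 0.00794). In all 3 genes the lowest LIN41 IP was above the highest SART-3 IP. For glit-1, which encodes a gliotactin-like transmembrane protein, CPM of 63.8, 127 and 102 overlapped 29.0, 66.9 and 43.2, and the difference was 1.06 (standard error 0.247, adjusted p = 0.0410). The input differences of the 4 genes ran from −0.43 for glit-1 (standard error 0.235, and 0.11, −0.44 and −1.12 by replicate) to 0.15 for vrp-1 (standard error 0.207). DESeq2 called none of the 5, and the highest adjusted p in their blocked settings was 0.151 for cth-2, 0.815 for C50E3.6, 0.921 for vrp-1 and 1.00 for glit-1.
The exons of C50E3.6 overlap C50E3.5, and those of cth-2 overlap ZK1127.3, on the opposite strand, and neither neighbour passed the threshold (adjusted p = 0.935 and 0.977).

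A test of the IP difference minus the input difference used all 12 libraries and so shares the IP libraries with the comparison above. It called 5 of 8726 genes higher (0.0573%) and 0 lower, with 86 and 72 at an unadjusted p below 0.05, and 0 lower also with DESeq2 and the likelihood ratio test. The lowest adjusted p was that of mab-3 (0.00203), with a value of 2.35 and a standard error of 0.287. It was followed by mab-10 with 4.34 (standard error 0.587, adjusted p = 0.00414), by lin-29 with 4.05 (standard error 0.651, adjusted p = 0.0248), by F18C5.10 with 3.14 (standard error 0.523, adjusted p = 0.0288) and by lin-41 with 4.07 (standard error 0.706, adjusted p = 0.0377). Of the other reported mRNAs, dmd-3 reached 3.33 with an adjusted p of 0.0925 and C31H5.5 reached 1.84 with one of 0.187, and neither passed. These are values of edgeR's quasi-likelihood test, whereas the study tested the interaction with a likelihood ratio test. With a likelihood ratio test, 7 genes were called higher here, the 5 above among them. All 12 genes of the first set had an unadjusted p under 0.05 here (highest 0.0171), with differences from 0.81 for cth-2 to 4.34 for mab-10. Of the 34 genes of the second set, 0 did (lowest 0.0938), with differences from −0.28 to 0.81 and standard errors from 0.238 to 0.695. Since the sets were drawn by input and IP values, these counts describe them and test nothing. Without replicate 3, this test called 0 genes (32 higher and 51 lower unadjusted).

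The second set was led by the collagens of the cuticle, the extracellular coat of the worm that is made anew at each molt. By their symbols, 9 of the 34 genes encode collagens (col-63, col-71, col-138, rol-1, bli-2, col-49, col-175, col-38 and bli-1). Among them are bli-1 and bli-2, whose collagens form struts of the adult cuticle. CPM of col-63 (WBGene00000639, between 8243694 and 8244963 on the minus strand of chromosome I) were 8.51, 41.6 and 453 in the LIN41 IP and 0, 7.97 and 77.2 in the SART-3 IP. The inputs gave 25.5, 75.1 and 387 with LIN41 against 9.64, 5.78 and 72.7 with SART-3. Within each replicate number the LIN41 library was higher, but the replicates differed from each other by more than the proteins did, and the groups overlapped. The log2 difference was 2.54 between the IPs (standard error 0.272, adjusted p = 1.30e-06) and 2.48 between the inputs (standard error 0.299, adjusted p = 0.0753). For rol-1 (WBGene00004394, between 12172573 and 12176069 on the plus strand of chromosome II), CPM were 17, 62.3 and 430 against 15.8, 14.3 and 81.8 in the IPs and 23.5, 120 and 441 against 7.23, 20.9 and 98.8 in the inputs. Its difference was 2.13 between the IPs (standard error 0.271, adjusted p = 1.87e-05) and 2.20 between the inputs (standard error 0.179, adjusted p = 0.0243).
Over the 9 collagens the log2 difference ran from 1.21 for col-38 to 2.54 for col-63 between the IPs (standard errors 0.191 to 0.382) and from 1.18 to 2.48 between the inputs, and that between IP and input from −0.28 to 0.35 (standard errors 0.290 to 0.486). Their summed CPM were 592, 1330 and 4461 in the LIN41 IP and 313, 357 and 1406 in the SART-3 IP, and 557, 1613 and 3669 in the LIN41 input and 285, 421 and 1276 in the SART-3 input. All 9 were highest in replicate 3 in each of the 4 groups. Over all 8726 genes tested, 2938 were highest in LIN41 IP 3, 2862 in SART-3 IP 3, 2655 in LIN41 input 3 and 3163 in SART-3 input 3. In 0 of the 9 did the LIN41 and SART-3 IPs separate. Only rol-1 and col-138 were past the threshold between the inputs, 2 of 12851 genes (0.0156%), with 0 lower (867 and 280 at an unadjusted p below 0.05, and 20 and 2 with DESeq2). In whole worms, fewer cells that make a transcript and less of it per cell cannot be told apart.
All 9 collagens except col-71 lost their call without replicate 3, and only col-38 (adjusted p = 0.198 at most over its blocked settings) and bli-1 (1.00) lost it also without replicate 2. A list of 156 col genes, of which 100 were tested, gave 6 higher and 0 lower, against 0.527% and 0.0802% of all genes. Of the 100, 91 had a positive value and the median was 0.40 (0.59, 0.31 and 0.08 by replicate). Over all genes, 4270 of 8726 were positive and the median was −0.01. With no block, the median of the col genes was 0.18 without LIN41 IP 1. Between the inputs it was 0.21. Of 18 tested collagens of body shape, 2 were higher (bli-1 and bli-2) and the median was 0.14.

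The remaining 25 genes of the second set were of mixed kinds. The neuropeptide-like gene nlp-4 had CPM of 434, 156 and 188 in the LIN41 IP and 89.5, 62.1 and 79.5 in the SART-3 IP, with no overlap of the groups. Its log2 difference was 1.63 between the IPs (standard error 0.207, adjusted p = 1.87e-05) and 1.2 between the inputs (standard error 0.169, adjusted p = 0.0847). It was the only 1 of 72 neuropeptide genes tested that passed (0 lower), against 0.527% higher and 0.0802% lower over all genes. That count is too small to be a result about neuropeptide genes. The call of nlp-4 passed without each replicate in turn. WBGene00000686, for which no symbol was matched, had 179, 210 and 646 CPM against 42.1, 54.2 and 243, a difference of 1.70 (standard error 0.193, adjusted p = 3.50e-06) that was 1.74 between the inputs. The count of collagens was made by symbol and so left this gene unclassified.
Chosen after their values were seen were 5 genes of sperm-expressed families: ssq-2 and ssq-3 of sperm-specific family class Q, gskl-2, a kinase gene related to GSK3, and gipc-1 and gipc-2. They differed by 0.79 to 1.45 between the IPs (standard errors 0.189 to 0.336) and by 0.63 to 1.14 between the inputs. CPM of ssq-2 were 29.8, 101 and 344 in the LIN41 IP and 10.5, 54.2 and 175 in the SART-3 IP, higher with LIN41 within each replicate but overlapping as groups. The fatty acid and retinol binding gene far-8 was higher by 1.00 (standard error 0.202, adjusted p = 0.0113), with 119.2, 174 and 146 against 71.1, 79.7 and 70.4 CPM and an input difference of 1.12, and the glutamine synthetase gene gln-2 by 1.15 (standard error 0.251, adjusted p = 0.0246, input 1.03). The call of cyn-2, a cyclophilin gene (0.92, adjusted p = 0.0353), is uncertain partly because its exons overlap cul-2 on the same strand. That neighbour itself had an adjusted p of 0.981. The calls of cyn-2, far-8, gln-2, gskl-2, gipc-1, gipc-2 and ssq-2 were lost without replicate 2 and also without replicate 3. That of ssq-3 was lost without replicate 3, and DESeq2 called none of these genes. Of the 34 genes, 29 were highest in replicate 3 of the LIN41 IP, 29 in that of the SART-3 IP, 30 in that of the LIN41 input and 28 in that of the SART-3 input. Over all 8726 genes tested, the counts for these groups in the same order were 2938, 2862, 2655 and 3163.

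Listed markers of sperm lay mostly on the side of the second set, although none on that list passed the test. The list left out the 5 called genes of sperm-expressed families named above. Of 95 genes of sperm and their formation, 32 were tested, and 30 had a positive value, against 4270 of all 8726 genes tested. The median of the list was 0.67 between the IPs (0.71, 0.61 and 0.33 by replicate) and 0.90 between the inputs. The median depended on single libraries: with no block it was 0.15 without LIN41 IP 3, 0.39 without SART-3 IP 1, 0.39 without SART-3 IP 2 and 1.39 without SART-3 IP 3. Nearest to the threshold by edgeR was ssp-10 (1.02, standard error 0.247, adjusted p = 0.0520), with 55.3, 88.3 and 190 CPM in the LIN41 IP and 15.8, 33.5 and 122.6 in the SART-3 IP. Summed CPM of the list were 1736, 2371 and 4420 in the LIN41 IP and 929, 1348 and 3302 in the SART-3 IP, so that, as for the collagens, replicate 3 was highest in both. The part of male or sperm content in the differences of the second set was not tested.

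The 7 genes lower in the LIN41 IP, and thus higher with SART-3, were Y39G8B.7, far-3, C50F7.5, scl-2, sdz-35, C05B5.8 and catp-3. CPM of Y39G8B.7 (WBGene00012727, between 13994410 and 13995034 on the minus strand of chromosome II) were 38.3, 28.6 and 13 in the LIN41 IP and 121, 94.0 and 65.9 in the SART-3 IP, a log2 difference of −1.84 (standard error 0.302, adjusted p = 0.000886), close to the −1.60 between the inputs. The fatty acid and retinol binding gene far-3 had 89.4, 13 and 20.8 against 224, 76.5 and 43.2 CPM, a difference of −1.55 (standard error 0.287, adjusted p = 0.00486, input −1.50), and was the only lower gene with overlapping groups. These values and those of far-8 show fatty acid and retinol binding genes on both sides, far-8 higher and far-3 lower. The largest difference was that of sdz-35, with −2.77 (standard error 0.619, adjusted p = 0.0319) and an input difference of −1.24. Its LIN41 IPs held 1, 1 and 2 counts, under the 3 counts set as a floor, against 12, 18 and 12 in the SART-3 IPs. It thus entered the test only through the SART-3 IPs.
The values of C50F7.5 (−1.71, standard error 0.338, adjusted p = 0.00948) and C05B5.8 (−1.21, standard error 0.273, adjusted p = 0.0353) exceeded their input differences of −0.82 and −0.20. CPM of C50F7.5 were 34, 20.8 and 15.6 in the LIN41 IP and 71.1, 73.3 and 75.0 in the SART-3 IP. The LIN41 IPs held 8, 8 and 6 counts of C50F7.5, which entered the test only through the SART-3 IPs, so its separation lends no support. CPM of C05B5.8 were 17, 57.1 and 44.3 against 81.6, 102 and 102, with no overlap. The SCP-like gene scl-2 differed by −1.13 (standard error 0.226, adjusted p = 0.0110, input −0.78) and the cation-transporting ATPase gene catp-3 by −0.75 (standard error 0.178, adjusted p = 0.0485, input −0.58). In the test of IP minus input difference, 0 of the 7 passed the threshold, and the differences ran from −1.58 to 0.05. Next by p among genes lower in all replicates, the lysozyme gene lys-7 was at −0.86 (adjusted p = 0.0730, input −0.68). None of the 7 calls passed with DESeq2 or without replicate 3.
The mRNA of sart-3 itself (WBGene00007111, between 11329482 and 11332969 on the minus strand of chromosome IV) had 25.5, 39 and 31.3 CPM in the LIN41 IP and 52.7, 76.5 and 61.3 in the SART-3 IP. Each SART-3 IP was above each LIN41 IP, and the replicates were close (−0.92, −0.89 and −0.87 on the log2 scale). The fitted difference of −0.98 did not pass the threshold (standard error 0.308, adjusted p = 0.193), at counts of 6, 15 and 12 against 20, 48 and 27. Between the inputs it was −0.48 (standard error 0.154).

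**Figure D3:**
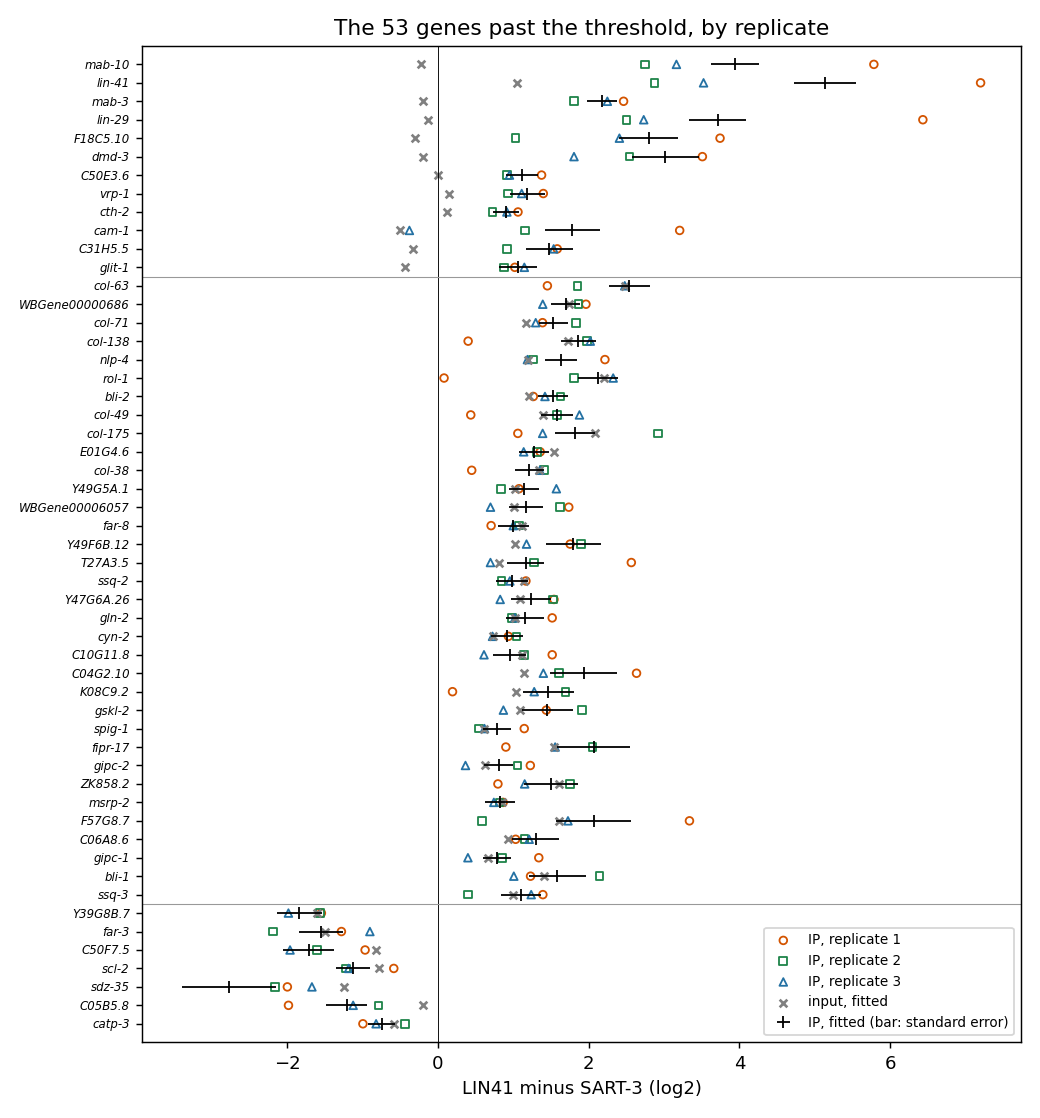
Log2 difference LIN41 minus SART-3 of the 53 genes past the threshold: within each replicate number (coloured open symbols), as fitted between the IPs (black bar with its standard error) and as fitted between the inputs (grey cross). Lines separate the 12 genes of the first set, the 34 of the second and the 7 lower genes. In the first set replicate 1 lies far to the right for lin-41 (7.20), lin-29 (6.43) and mab-10 (5.78), and cam-1 is the only gene with a replicate of the opposite sign (−0.38).

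The differences of single replicates agreed little outside the called genes. Across 8726 genes, Pearson r of the log2 differences was 0.06 between replicates 1 and 2, 0.07 between 1 and 3 and 0.38 between 2 and 3. Without the 53 called genes it was 0.01, 0.02 and 0.35. The points are genes of the same 6 libraries and are not independent. The first set differed by a median of 2.84, 1.09 and 1.67 in replicates 1, 2 and 3, and the second by 1.25, 1.47 and 1.18. The medians of the first set between the inputs were 0.18, −0.31 and −0.30, so their sign varied with the replicate. Summed CPM of the first set were 7260, 2366 and 2534 in the LIN41 IP against 606, 790 and 743 in the SART-3 IP, whereas its sums in the inputs stayed between 713 and 1011. Across 8721 genes, r between the IP and the input difference was 0.59 (Spearman rho 0.49), from libraries that share their lysates but no sequenced library.

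The lists of genes around LIN41 showed calls only in genes already named above, some of them in several lists, so these counts add no separate result. Over all genes tested, 46 of 8726 were higher (0.527%) and 7 lower (0.0802%). Of 18 heterochronic genes, which set the timing of larval development, 10 were tested, and 3 were higher (lin-41, mab-10 and lin-29), 0 lower. The median was −0.03. Among the 7 that did not pass, values ran from −0.99 for daf-9, a cytochrome P450 gene of steroid hormone synthesis (standard error 0.337, adjusted p = 0.254), to 0.17 for lin-42, and lin-28 was at −0.14 (standard error 0.289). Of 20 genes of the DM domain family and of sex determination, 11 were tested, 2 were higher (mab-3 and dmd-3) and 0 lower, and the DM domain genes dmd-6 (−0.29, standard error 0.217) and dmd-7 (−0.75, standard error 0.398) did not pass.
Of 29 genes of Wnt signalling, 18 were tested. The receptor gene cam-1 was higher, 0 were lower, and the kinase gene mom-4 was next, with 1.34 (standard error 0.361, adjusted p = 0.102, and 1.22, 1.05 and 1.33 by replicate). The median of the 18 was −0.02. Of 18 mRNAs known from LIN41 and OMA particles of oocytes, 7 were tested and lin-41 was the only call. The others ran from −0.71 for glp-1, the germline Notch receptor gene (standard error 0.497), to 0.43 for puf-11, a Pumilio family gene (standard error 0.333). Of 4 tested TRIM-NHL genes, lin-41 passed and nhl-1 (−0.42), nhl-3 (0.13) and ncl-1 (−0.06) did not.

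The 78 tested ribosomal protein genes moved together but none passed by edgeR. All 78 had a positive value, against 4270 of all 8726 genes tested. The median of the 78 was 0.45 between the IPs (0.60, 0.58 and 0.15 by replicate) and 0.18 between the inputs. The largest was rpl-36, with 1009, 642 and 685 CPM in the LIN41 IP and 619, 422 and 579 in the SART-3 IP (0.52, standard error 0.185, adjusted p = 0.296). The groups did not overlap for rpl-36, although replicate 3 differed by only 0.24. Their summed CPM were 115526, 73327 and 74463 in the LIN41 IP and 76012, 49419 and 68128 in the SART-3 IP. The authors kept 1 read per start position, and the median was 0.35 with counts corrected for that ceiling. With no block, it was 0.22 without LIN41 IP 1 and 0.29 without SART-3 IP 2.

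**Figure D4:**
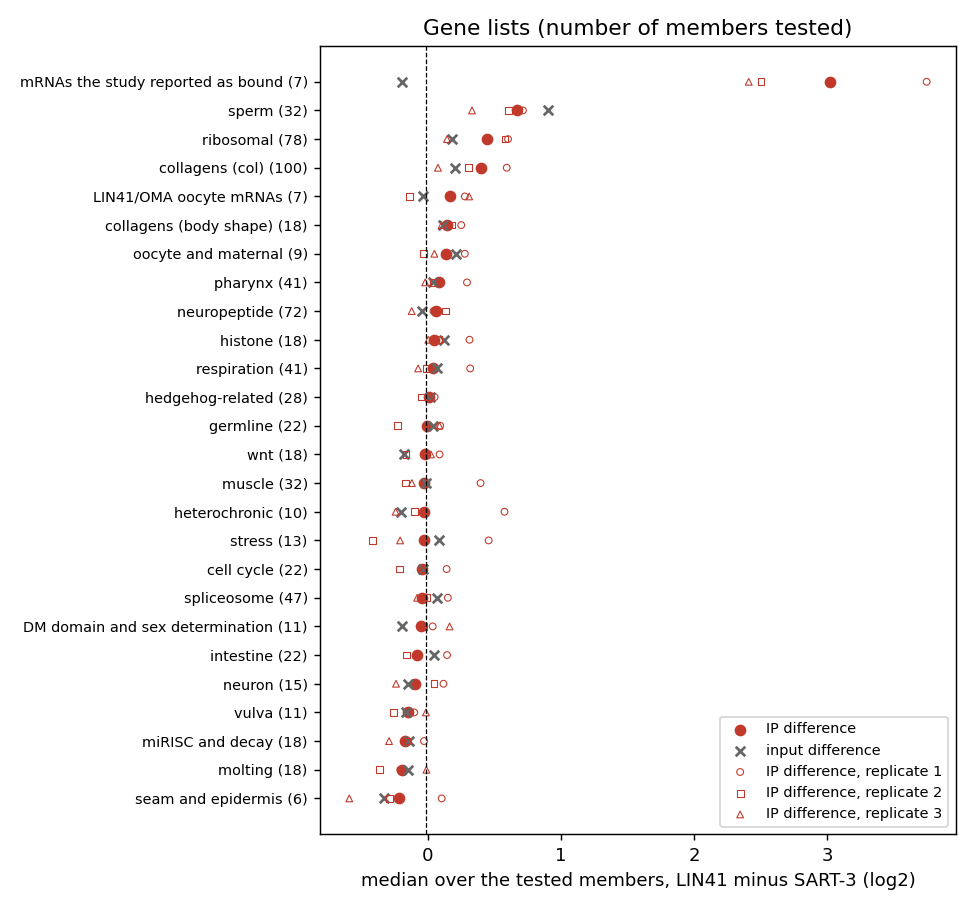
Median log2 difference LIN41 minus SART-3 over the tested members of each gene list with at least 5 of them (number in brackets): fitted between the IPs (filled), by replicate (open symbols) and between the inputs (crosses). The dashed line is the median of all 8726 genes, −0.01. The reported mRNAs stand apart at 3.02, then follow sperm (0.67), ribosomal protein (0.45) and col genes (0.40), and the other lists lie between −0.21 and 0.17.

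Markers of tissues were spread around 0 between the IPs. Each list had 0 calls by edgeR, against 0.527% higher and 0.0802% lower over all genes tested. At such shares, lists of this size cannot show a lack of calls. The medians were −0.03 over 32 muscle genes, −0.10 over 15 neuronal genes, −0.08 over 22 intestinal genes, 0.09 over 41 pharyngeal and gland genes, 0.00 over 22 germline genes and 0.14 over 9 oocyte and maternal genes. Of 6 seam and epidermis genes, 1 had a positive value and the median was −0.21, and eff-1, the fusogen gene of epidermal cells, was at −1.05 (standard error 0.468, adjusted p = 0.451, with 12.8, 13 and 15.6 against 26.3, 30.3 and 29.5 CPM). Of 18 genes of molting, 4 had a positive value and the median was −0.19, led by ptr-4 (−0.57, adjusted p = 0.409). Over all genes tested, 4270 of 8726 had a positive value. Enough counts for the test were found for 32 of 32 muscle, 22 of 22 intestinal, 22 of 28 germline, 15 of 24 neuronal and 6 of 15 seam and epidermis genes, so that markers of all these tissues of the whole larva were present. Splicing genes, the class of the control protein, had a median of −0.05 over 47 genes, and genes of miRNA complexes and mRNA decay −0.17 over 18.

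By coding length, calls lay mostly among shorter genes. In quintiles of the deposited gene length, nearly all lengths of which are multiples of 3 and so hold no UTRs, 11, 14, 13, 3 and 5 genes were higher from the shortest to the longest, and the median of all genes went from 0.10 to −0.09. The 46 higher genes had a median coding length of 900 bases against 1164 for all genes tested, and offsets for gene length left 24 higher and 4 lower calls. No called gene reached 0.5 counts per base in an IP library, a level that 174 genes exceeded. By chromosome, 14 of 1452 tested genes were higher on II, 12 of 1599 on I, 5 of 1554 on III, 6 of 1482 on IV, 6 of 1584 on V and 2 of 943 on X. The filter set a limit at low counts: 871 genes had 10 counts in exactly 3 of the 6 libraries (median total 61), and 11 of the 53 calls were among them, while 920 genes with 10 counts in exactly 2 (median total 49) were not tested.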

How the data were processed

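RNA was measured by RIP-seq with a stranded mRNA kit. The deposited values are raw read counts per gene. Per the paper's methods, the authors kept 1 read per 5′ end position, aligned reads with QuasR and counted reads over WormBase WS190 exons (assembly ce6 in the methods, ce10 in the labels). Use of strand in counting is not given in the sources used here. Libraries were grouped by their labels. Names were matched for 18778 of 20182 identifiers (93.0%), and WBcel235, a later assembly, served only for positions. The tests were run with edgeR 4.0.16 in R 4.3.3 (TMM, quasi-likelihood F test, two-sided, Benjamini-Hochberg), DESeq2 1.42.0 and limma 3.58.1. The biological coefficient of variation was 0.125 in the IPs. Standard errors are the log2 value over the square root of F. Single-replicate values subtract log2 CPM, to which edgeR added a prior count of 2. The study's model has a term for sequencing batch, which neither the labels nor the methods tie to the replicate number. The number was used as a block in place of that term. Over 5259 genes, deviations of LIN41 and SART-3 IPs from their group means correlated at 0.554, 0.355 and 0.535 for equal numbers and −0.472 to 0.161 for others. Deviations from a group mean cancel out across its libraries, so values for equal and unequal numbers are not independent. No other ground was found for taking the numbers as pairs.

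Members, lists and tests were chosen with earlier results of these data known. By rule, the text names the 7 mRNAs of the study, sart-3, in each direction the 15 called genes lowest in p with 1 sign in 3 replicates (with the next by p where under 8 were lower), up to 4 called members of each list (2 where none passed) and genes past the threshold in IPs and inputs. Others (C50E3.6, vrp-1, cth-2, glit-1, col-38, the ssq, gskl and gipc genes, far-8, gln-2, cyn-2, daf-9, lin-42, lin-28, dmd-6, dmd-7, mom-4, puf-11, the nhl genes, ncl-1 and overlapping neighbours) were chosen after their values were seen. Alternatives were other tests, scalings, filters and thresholds, no block, thinned counts, corrections for collapsing and length, and left-out replicates and libraries.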

Additional observations from a re-analysis of the deposited data

Results flagged for a closer look

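For 5 genes the difference between the IPs differed from that between the inputs of the same strains, by edgeR's test of the interaction of library type and protein at an adjusted p under 0.05. The log2 value of IP minus input difference was 2.35 for mab-3, 4.34 for mab-10, 4.05 for lin-29, 3.14 for F18C5.10 and 4.07 for lin-41, each positive with 3 replicates per group. The interaction uses the IP libraries of the comparison itself and is no separate support for it.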

How the results depend on the processing

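The 46 higher and 7 lower calls between the IPs kept their sign in each of the settings with the replicate block. Calls were more with the likelihood ratio test (111 and 13), no filter on low counts (102 higher) and an adjusted p under 0.1 (70 higher). They were fewer with DESeq2 (13 and 0), total-count scaling (23 higher), at least 10 counts in every library (14 and 1, with 5259 genes tested), all 12 libraries in the fit (26 and 3), gene length offsets with the block (24 and 4) and thinned counts (4 lower). Other scalings, limma-voom, filterByExpr, the robust fit and the ceiling correction gave 41 to 68 higher and 6 to 8 lower calls. With no replicate block the counts were 0 and 0. Leaving out a replicate number or a single library gave 0 to 202 higher and 0 to 151 lower. The higher count without the block was 4 without LIN41 IP 1 (lin-41, mab-10, lin-29 and mab-3) and 0 without any other single library. Without LIN41 IP 3 and with no block, col-63 (−0.041), ssq-2 (−0.20) and ssq-3 (−0.14) reversed. The causes were not tested. Of the 53 calls, 8 passed without each replicate in turn (col-71, dmd-3, lin-29, lin-41, mab-10, mab-3, nlp-4 and WBGene00000686), and 11 passed in all other blocked settings that tested them. Between the inputs, 2 higher and 0 lower calls became 318 and 31 with the likelihood ratio test, 20 and 2 with DESeq2, 1 higher with RLE factors, 1 higher with filterByExpr and 0 with no replicate block, and ranged from 0 to 1782 and 0 to 1386 with a replicate left out. The 5 higher interaction calls were 7 with the likelihood ratio test, 4 with DESeq2, 0 with no replicate block and 0 to 7 with a replicate left out. Depth limits the low genes: several calls rest on under 10 counts in the SART-3 IPs.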
